A study of Homo sapiens with 6 samples.

Results

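The 10 genes described here mark myeloid cells: MPO, ELANE, PRTN3, AZU1, CTSG and LYZ encode proteins stored in or secreted from granules, and CD33, CD14, ITGAM and CD34 encode surface proteins. They were picked by symbol, for their known roles, as a set of granule and differentiation markers, with earlier results of these data known. All 10 symbols were found among the 60609 gene identifiers listed for each library, and 9 of them were among the 20725 genes with enough fragments to be tested. The exception was CD14, which was nearly unread.

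The cells were OCI-AML5, an established human acute myeloid leukemia (AML) line that was kept in medium with 10 ng/mL GM-CSF, a cytokine that sustains myeloid cells. S767 is a small molecule that the study took from a screen of AML specimens. The 3 treated libraries came from cells that had S767 at 1 μM in the medium for 24 hours, and the 3 control libraries from cells given DMSO, the solvent, for the same time. All 6 libraries were made from poly(A)-selected RNA with a stranded kit, all from this 1 line with no engineered allele named, so they describe OCI-AML5 and not AML cells in general.

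Myeloid progenitors make the azurophil granule proteins early: myeloperoxidase and the serine proteases are transcribed in the promyelocyte and switched off as the cell matures, while lysozyme and the integrin subunit CD11b are retained in mature granulocytes and monocytes. CD34 marks immature progenitors, CD33 appears on committed myeloid cells, and CD14 belongs to monocytes. The factors PU.1, C/EBP and MYB are known to act on the promoters of several of these genes.

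Each library held between 149994700 and 258029564 fragments on genes, so counting error was small except for the lowest genes. The DMSO and S767 libraries went together by replicate number. Those of the same number deviated together from their group means (correlations of 0.78, 0.87 and 0.75 over 6191 genes). The highest correlation of a DMSO library with an S767 library of another number was -0.24. Group means were subtracted first, so these correlations do not weigh replicate number against treatment. Negative values between numbers follow in part from that subtraction. What the numbers share is not stated in the labels or the methods, so each comparison is given without the replicate number and, where the call differs, with it as a block. P-values measure the spread between these libraries, since nothing says how separate the cultures were.

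The myeloid identity of the line showed in 7 of 8 myeloid markers with a mean level of at least 1 TPM, the transcript level from RSEM that allows for gene length and library size. Their summed level was 689 to 1108 TPM in DMSO and 689 to 1110 TPM in S767. SPI1, which encodes PU.1, stood at 236 TPM and CEBPA at 107 TPM, while ANPEP, the gene of CD13, was at 0.0533 TPM. The 5 erythroid markers summed to at most 0.01 TPM in any library and 3 of them were at 0 throughout. The 5 megakaryocytic markers summed to 0.56 to 0.89 TPM in DMSO and 0.66 to 0.96 TPM in S767. The 6 lymphoid markers summed to 11.2 to 21.2 TPM in DMSO and 12.5 to 22.4 TPM in S767, nearly all of it from CD79A and NKG7, while CD3E was at 0. The ranges of all 4 marker sums overlapped between the groups.

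AZU1, PRTN3 and ELANE lie one after another on the forward strand of chromosome 19, at chr19:825097-832018, chr19:840960-848175 and chr19:851014-856247 (GRCh38, GENCODE 29). The gap is 8941 bp between AZU1 and PRTN3, 2838 bp between PRTN3 and ELANE, and 3395 bp between ELANE and CFD, the gene of complement factor D. CD33 is on the same chromosome at chr19:51225064-51243860. Of the other genes, MPO is at chr17:58269856-58280935, CTSG at chr14:24573522-24576260, LYZ at chr12:69348341-69354234, CD14 at chr5:140631728-140633701, ITGAM at chr16:31259967-31332892 and CD34 at chr1:207880972-207911402. Of these, MPO, CTSG, CD14 and CD34 are on the reverse strand.

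RefSeq sequence of the 250 bases before the gene start (GRCh38.p14) was at hand for 7 of the 10 genes, PRTN3, AZU1, CTSG, CD33, CD14, ITGAM and CD34, but not for MPO, ELANE or LYZ. The stretches of PRTN3 (chr19:840749-840959, forward strand), AZU1 (chr19:827587-827835, forward strand) and ITGAM (chr16:31259725-31259966, forward strand) are shown because PRTN3 and AZU1 were lowest, and ITGAM highest, in the libraries of replicate number 3. Each stretch ends just before the first base that GENCODE 29 assigns to an exon of the gene, and the AZU1 stretch lies in an intron of a longer GENCODE transcript. Capitals mark matches, on either strand, to GAGGAA (PU.1 type) and to TTNNGNAA (C/EBP type).
PRTN3: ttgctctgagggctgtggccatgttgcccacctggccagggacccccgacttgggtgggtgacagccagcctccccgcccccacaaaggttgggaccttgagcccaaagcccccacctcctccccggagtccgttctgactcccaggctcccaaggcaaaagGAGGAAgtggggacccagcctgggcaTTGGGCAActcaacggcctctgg
AZU1: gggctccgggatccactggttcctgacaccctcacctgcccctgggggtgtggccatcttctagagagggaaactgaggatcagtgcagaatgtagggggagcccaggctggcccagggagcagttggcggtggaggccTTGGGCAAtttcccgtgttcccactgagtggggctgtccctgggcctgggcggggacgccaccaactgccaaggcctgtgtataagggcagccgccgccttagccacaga
ITGAM: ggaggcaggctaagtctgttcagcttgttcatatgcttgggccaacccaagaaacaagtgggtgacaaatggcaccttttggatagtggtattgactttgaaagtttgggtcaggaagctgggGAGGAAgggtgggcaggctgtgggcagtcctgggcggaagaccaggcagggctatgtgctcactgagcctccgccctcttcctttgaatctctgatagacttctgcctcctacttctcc
The PRTN3 stretch held 1 GAGGAA match, 88 to 83 bases before the RefSeq start, and 1 TTNNGNAA match, 62 to 55 bases before it. AZU1 held 1 TTNNGNAA match, 111 to 104 bases before its start, and no GAGGAA match. The C/EBP-type match reads TTGGGCAA in both genes. ITGAM held 1 GAGGAA match, 127 to 122 bases before its start. Among the windows of the other genes, CTSG and CD33 each held 2 GAGGAA matches, CD34 1, and CD14 1 with 1 TTNNGNAA match. A GAGGAA match was found in 23.6% and a TTNNGNAA match in 33.2% of all 35116 promoter windows of the same length, so single matches are common. AACNG (MYB type), present in 70.6% of windows, was found in all but those of CD33 and CD34, and TGTGGT (RUNX type), present in 11.0%, in none of the 7. The windows of CD14 and CD34 begin at a base that GENCODE 29 assigns to an exon of the gene. In CD33 the match nearer the start lies past the first such base.

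The 10 genes spanned over 4 orders of magnitude in level. LYZ, which encodes the bacterial cell wall enzyme lysozyme, was highest at a mean of 369 TPM over the 6 libraries, at percentile 98.4 of the genes tested. CD33, a sialic acid-binding receptor, followed at 97.1 TPM, CTSG, the protease cathepsin G, at 63.4 TPM, and MPO, myeloperoxidase, at 18.5 TPM. Each of these neighbours in the order was separated in 6 of 6 libraries, and their ranges over the libraries did not overlap.

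Next came ITGAM, the CD11b subunit of the integrin complement receptor, at 4.14 TPM, AZU1, the antimicrobial protein azurocidin, at 3.62 TPM, CD34, a surface sialomucin, at 1.43 TPM and PRTN3, the protease proteinase 3, at 0.932 TPM. The order among these was not fixed: ITGAM was above AZU1 in 2 of 6 libraries, AZU1 above CD34 in 4 of 6 and CD34 above PRTN3 in 3 of 6. ELANE, neutrophil elastase, was at 0.127 TPM and CD14, the lipopolysaccharide coreceptor, at 0.0283 TPM. Thus the neighbouring protease genes PRTN3 and ELANE were both low, while CTSG was 63.4 TPM in the same cells. Percentiles among the tested genes were 92.8 for CD33, 88.8 for CTSG, 70.2 for MPO, 50.9 for ITGAM, 49.7 for AZU1, 41.9 for CD34, 38.2 for PRTN3 and 17.9 for ELANE.

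**Figure D1:**
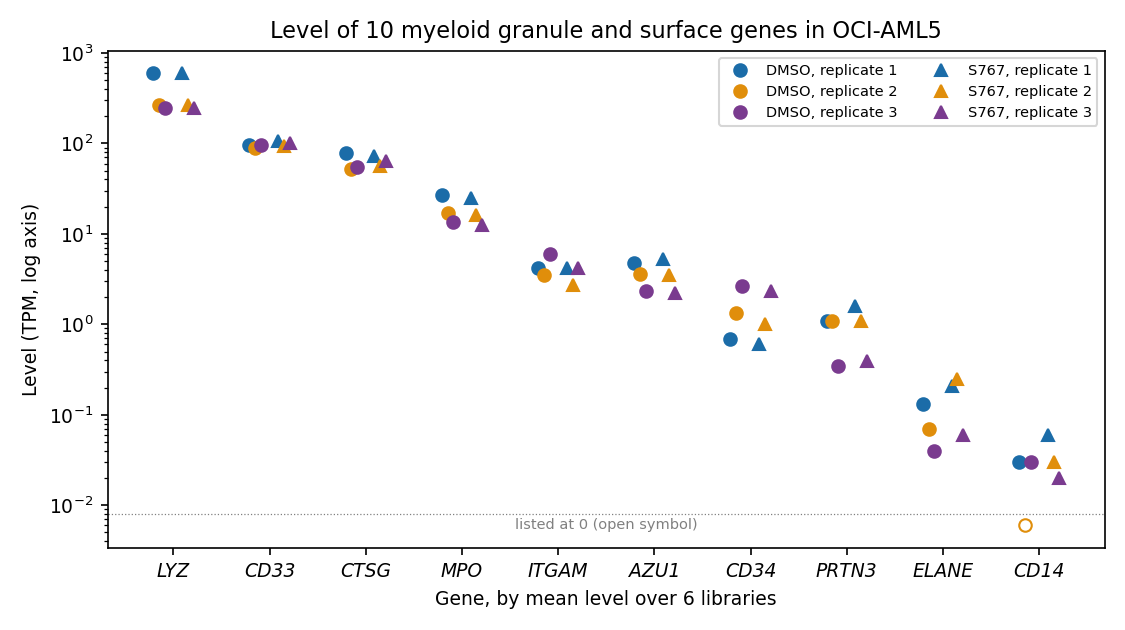
Level in TPM (log axis) of each gene in each library, ordered by mean. Circles are DMSO and triangles S767, coloured by replicate number, and the open symbol is a value listed at 0. LYZ lies highest, between 244 and 597 TPM, and CD14 lowest, at 0.06 TPM or less.

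S767 was compared with DMSO to ask whether the granule and surface genes moved after 24 hours. No gene of the set passed the test: 0 of 9 had an adjusted p under 0.05 in the quasi-likelihood test of edgeR, against 0.00483% of all genes tested, and limma-voom and DESeq2 also called 0. At an unadjusted p under 0.05 the count was also 0 of 9, against 3.53% of all genes. The groups overlapped for all 9. Of all genes, 5.12% lay wholly higher and 4.08% wholly lower in S767. At such shares, overlap for all 9 does not set these genes apart. In the same fit every adjusted p was 1.00. Exact two-sided permutation tests gave p-values from 0.4 (CD33) to 1.0 (AZU1), where 3 libraries against 3 allow none below 0.1. In bulk RNA, fewer cells of a type and less RNA per cell cannot be told apart.

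MPO had 61.8, 40.7 and 31.3 CPM (gene counts scaled to library size) in DMSO replicates 1, 2 and 3 and 56.8, 40.0 and 30.1 CPM in S767 replicates 1, 2 and 3. Every S767 library was close to the DMSO library of its number, and the groups overlapped. The log2 fold change was -0.08 ± 0.27 (SE, n = 3 per group), with a 95% confidence interval of -0.70 to 0.55.

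CTSG gave 40.6, 29 and 29.7 CPM in DMSO and 38.2, 32.5 and 35.6 CPM in S767, for replicates 1, 2 and 3 in turn here and below. The highest library of all was DMSO replicate 1. A log2 fold change of 0.10 ± 0.12 was estimated (interval -0.19 to 0.38).

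For AZU1 the values were 5.14, 4.02 and 2.80 CPM in DMSO and 5.67, 3.8 and 2.7 CPM in S767. Its log2 fold change was 0.03 ± 0.29 (interval -0.62 to 0.68), and S767 was higher in 1 of 3 pairs of the same number. Both libraries of number 1 were above the other 4.

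PRTN3, the next gene on the chromosome, gave 0.696, 0.706 and 0.247 CPM in DMSO and 0.982, 0.732 and 0.274 CPM in S767, from 54 to 234 fragments per library. The 2 libraries of number 3 stood below all others, and S767 was higher in 3 of 3 pairs. The log2 fold change of 0.30 ± 0.49 had an interval of -0.83 to 1.42.

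ELANE rested on 9 to 41 fragments per library. It gave 0.137, 0.108 and 0.0657 CPM in DMSO and 0.155, 0.229 and 0.0457 CPM in S767, so the S767 group held both the highest and the lowest library. Its log2 fold change of 0.48 ± 0.53 had an interval of -0.73 to 1.68, so that a change of that size was not detectable at this depth and spread.

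LYZ had 620, 278 and 253 CPM in DMSO and 607, 287 and 262 CPM in S767. In both groups replicate 1 stood far above the others, and the groups covered nearly the same range. Its log2 fold change was 0.01 ± 0.40 (interval -0.90 to 0.92).

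CD33 had 109, 91.0 and 105 CPM in DMSO and 118, 98.6 and 112 CPM in S767. S767 was higher in 3 of 3 pairs, but DMSO replicates 1 and 3 lay above S767 replicate 2. The log2 fold change was 0.11 ± 0.08 (interval -0.08 to 0.30).

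ITGAM gave 11.3, 9.88 and 17.9 CPM in DMSO and 11.3, 9.25 and 13.7 CPM in S767. The libraries of number 3 were highest in both groups. Its log2 fold change was -0.19 ± 0.22 (interval -0.70 to 0.31).

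CD34 gave 1.57, 3.10 and 6.26 CPM in DMSO and 1.51, 2.52 and 5.81 CPM in S767. In each of 3 pairs S767 was slightly lower, and the libraries of number 3 again stood highest. For CD34 the log2 fold change was -0.16 ± 0.56 (interval -1.43 to 1.11).

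CD14 was represented by 3, 4 and 9 fragments in DMSO and 15, 8 and 4 fragments in S767, 16 against 27 in sum, and did not pass the filter on low counts. Without that filter its log2 fold change was 0.76 ± 0.62 (edgeR, adjusted p = 0.947). The gene of this monocyte receptor was thus almost silent in both groups, although TLR4, the receptor that CD14 serves, stood at 19.5 TPM. The related genes TLR2 and LY96 were lower, at 1.78 and 0.258 TPM.

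Because the numbers pair the libraries, the same test was run with the replicate number as a block. On a single set of simulated counts, the share of false calls of this fit was above its nominal limit. A single set does not fix the rate of false calls. Each call with the block given here and below is read with that reserve. CD33 then rose, by 0.11 ± 0.02 on the log2 scale or 1.08-fold (adjusted p = 0.0241, edgeR), with pair differences of 0.12, 0.12 and 0.09. It was the only gene called, 1 of 9 against 3.23% of all genes tested, or 2.16% called in the higher direction. The call was lost without the pair of replicate 2 (adjusted p = 0.420), where only 0.113% of all genes were called. It held in 7 of 8 fits with the block, over which the log2 fold change ranged from 0.10 to 0.12. Without the pair of replicate 1, CTSG (0.21, adjusted p = 4.46e-06) and ITGAM (-0.26, adjusted p = 0.000246) were called as well, 3 of 9 against 9.86% of all genes. For CTSG the pair left out went the other way (pair differences of -0.09, 0.16 and 0.26 for replicates 1, 2 and 3). For ITGAM it showed almost no change (0.00037, -0.09 and -0.39).

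The intervals of the other genes became narrower with the block. That of LYZ ran from -0.03 to 0.08 and that of AZU1 from -0.14 to 0.16 on the log2 scale. MPO had a log2 fold change of -0.07 ± 0.03 (adjusted p = 0.234), ITGAM -0.17 ± 0.06 (adjusted p = 0.182), CTSG 0.11 ± 0.05 (adjusted p = 0.297) and CD34 -0.15 ± 0.07 (adjusted p = 0.319), all by edgeR with the block and none past the limit. For PRTN3 the value was 0.26 ± 0.15 (interval -0.06 to 0.58, adjusted p = 0.411), and for ELANE 0.34 ± 0.34 (interval -0.39 to 1.07, adjusted p = 0.682). Unadjusted p-values under 0.05 were found for 4 of 9 genes (MPO, CTSG, CD33 and ITGAM), against 16.8% of all genes. S767 was higher in all 3 pairs for 2 of 9 genes, PRTN3 and CD33, against 19.9% of all genes, and lower in all 3 for 2 of 9, MPO and CD34, against 17.8%.

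**Figure D2:**
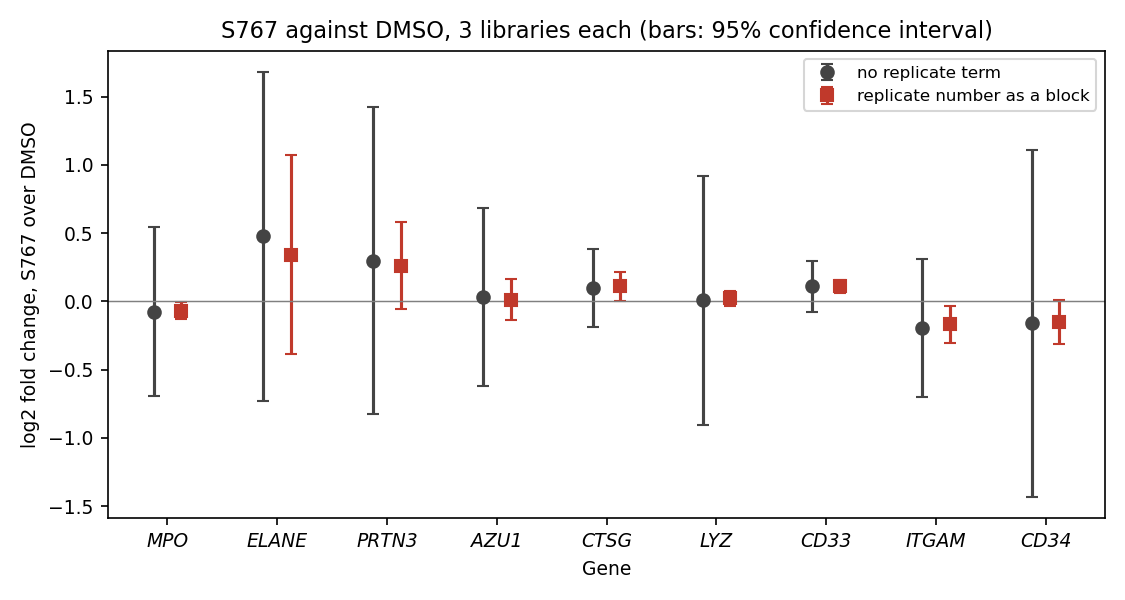
log2 fold change of S767 over DMSO for the 9 genes tested, with 95% confidence intervals, without a replicate term (grey circles) and with the replicate number as a block (red squares). Without the term every interval spans 0. With the block the interval of CD33 runs from 0.06 to 0.16. Those of MPO (-0.13 to -0.008), ITGAM (-0.30 to -0.03) and CTSG (0.0002 to 0.22) also exclude 0, without adjustment for the number of genes tested.

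The larger differences lay between replicate numbers. All 9 genes differed between the 3 numbers (edgeR quasi-likelihood F test with treatment in the model, adjusted p under 0.05), against 28.7% of all genes tested. This test, too, exceeded its nominal share of false calls on that single set of simulated counts. Among genes with a mean of at least 1 TPM, where the test has more counts to work with, the share was 40.1%, and 7 of the 9 genes were in that class. The numbers carry no condition in the labels, and a cause of these differences was not tested.

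The adjusted p-values in this and the next paragraph are from that joint F test over the 3 numbers. No single pair of numbers was tested. LYZ, MPO, AZU1 and PRTN3 shared a direction. LYZ was 2.38-fold higher in number 1, the highest, than in number 3, the lowest (adjusted p = 2e-10). MPO differed in the same direction by 1.93-fold (adjusted p = 2.2e-08), AZU1 by 1.96-fold (adjusted p = 1.57e-05) and PRTN3 by 3.10-fold (adjusted p = 8.37e-05). ELANE, on few fragments, was highest in number 2 and lowest in number 3, with a 2.59-fold range (adjusted p = 0.0371, and 0.0576 with RSEM expected counts). CTSG was also highest in number 1 but varied by 1.28-fold (adjusted p = 0.00169), with number 2 the lowest, as CD33 did by 1.2-fold (adjusted p = 7.19e-05).

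CD34 and ITGAM were highest in number 3. CD34 was 3.89-fold higher in number 3 than in number 1 (adjusted p = 1.54e-07), the widest difference of the set. ITGAM was lowest in number 2, with a 1.64-fold range (adjusted p = 6.35e-05). Hence the library pair with the least LYZ, MPO, AZU1, PRTN3 and ELANE had the most CD34 and ITGAM. Of the 9 genes, 6 were highest in number 1 (66.7%), against 36.1% of all genes tested.

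**Figure D3:**
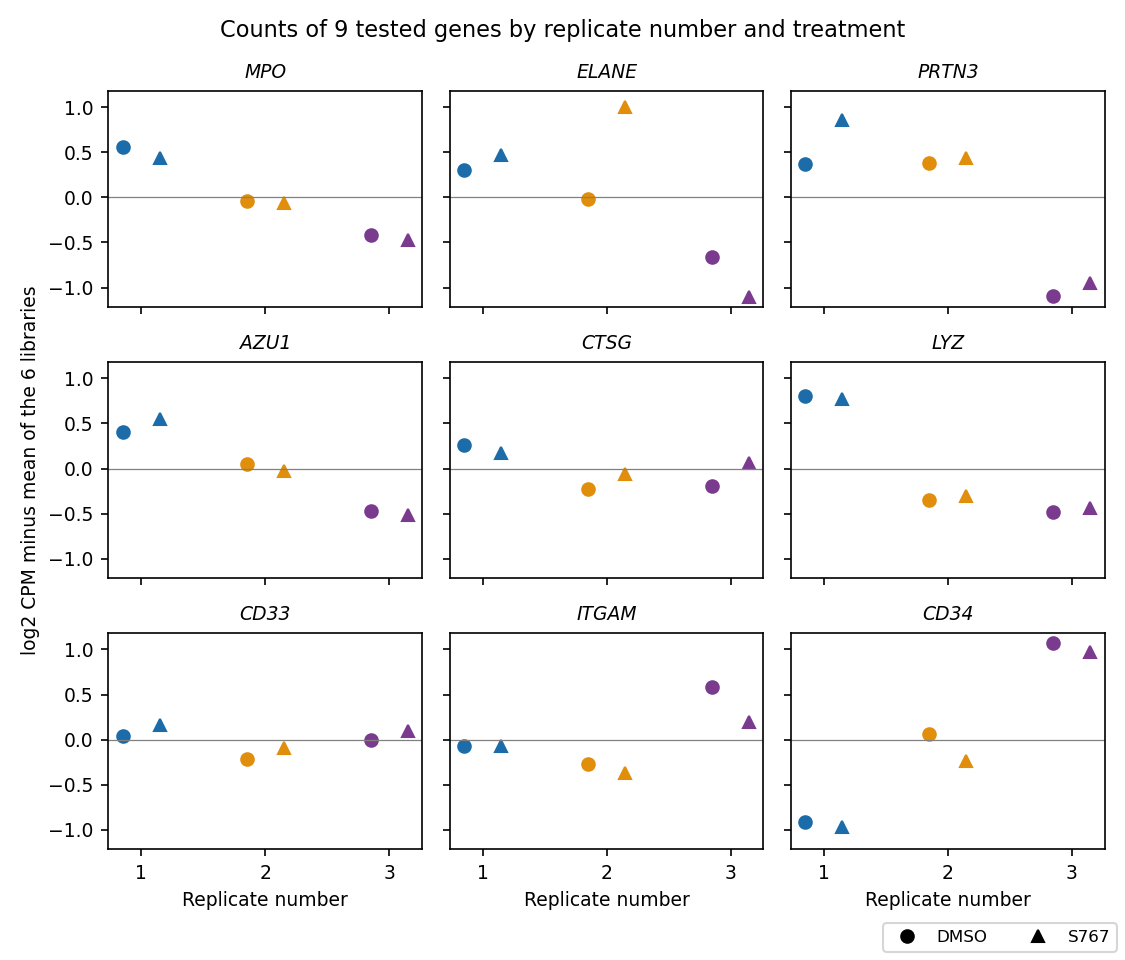
log2 CPM of each gene less its mean over the 6 libraries, by replicate number, for DMSO (circles) and S767 (triangles). Within a number the treatments differ by at most 0.14 for MPO, AZU1 and LYZ, but by up to 1.02 for ELANE and 0.49 for PRTN3. MPO, PRTN3, AZU1 and LYZ are lowest in number 3 and CD34 is highest there.

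The size of both sources of variation was compared as shares of the sum of squares of log2 CPM. The replicate number took 99.8% for LYZ, 99.0% for MPO, 98.7% for CD34, 98.5% for AZU1, 96.0% for PRTN3, 86.7% for ITGAM, 80% for CD33, 78.6% for ELANE and 73.5% for CTSG. The median over the 9 genes was 96.0%, beside 62.8% over all genes tested. Treatment took at most 9.74% (CTSG) apart from CD33, where it took 19.8%, and its median was 2.37% beside 10.2% over all genes. The median range between numbers was 0.97 on the log2 scale for the 9 genes and 0.21 for all genes.

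**Figure D4:**
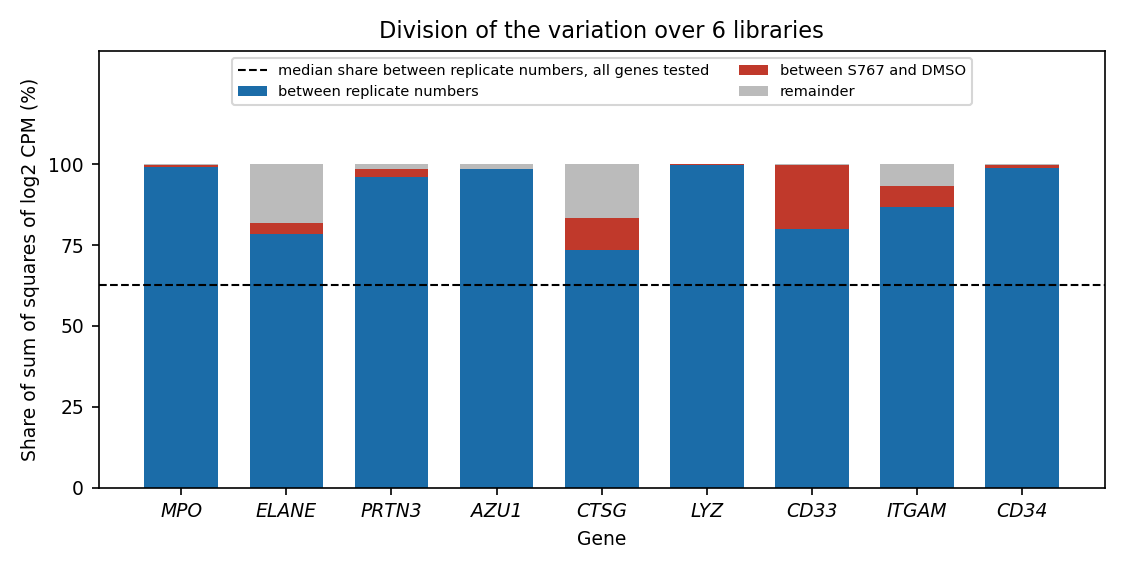
Shares of the sum of squares of log2 CPM over the 6 libraries that fall between replicate numbers (blue), between S767 and DMSO (red) and on the remainder (grey), for each gene, with the median share between numbers over all genes tested as a dashed line at 62.8%. All 9 blue bars end above that line, and the red share is widest for CD33.

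For the 4 genes with the widest range, the genes of most similar pattern were found by the root mean square (RMS) difference of centred log2 CPM over the 6 libraries. For LYZ these were SERPINB2, the gene of a plasminogen activator inhibitor (RMS difference 0.10, 4.70 TPM), and TBXAS1, the thromboxane synthase gene (0.10, 0.462 TPM). For PRTN3 they were S100A9, which encodes a calcium-binding protein of neutrophils and monocytes (0.18, 3.38 TPM), and the pseudogene BLZF2P (0.21). P2RY14, a nucleotide sugar receptor gene (0.19, 0.820 TPM), and TRBV27 (0.24) were nearest to CD34. KNOP1P4 (0.17, 0.0367 TPM) and SMG1-DT (0.17, 0.0700 TPM) were nearest to ELANE. These are descriptions over 6 libraries that share the replicate structure.

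Further genes of the granule and differentiation programs were read in 6 lists of 77 genes, of which 53 were tested. Without the block 0 of 53 passed at the adjusted or the unadjusted limit of 0.05. With it 6 of 53 were called, all higher in S767 (11.3%, against 3.23% of all genes). The count was 21 without the pair of replicate 1, where 9.86% of all genes were called, and 0 without that of replicate 2, where 0.113% were. The groups did not overlap for 4 of 53 genes that were higher in S767, against 5.12% of all genes, and for 2 that were lower, against 4.08%. The median log2 fold change over the 53 genes was 0.05, beside -0.00024 over all genes.

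Of 11 azurophil and other early granule genes, 10 were tested. A log2 fold change above 0 was found for 8 of the 10 (80%, against 49.8% of all genes), and the median was 0.10. The highest, SRGN, which encodes the granule proteoglycan serglycin, was at 2060 TPM. It gave 2009, 1575 and 1367 CPM in DMSO and 2226, 1676 and 1513 CPM in S767, overlapping groups with S767 higher in 3 of 3 pairs. With the block SRGN rose by 0.13 ± 0.03 on the log2 scale (adjusted p = 0.0186).

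RNASE2, the gene of eosinophil-derived neurotoxin, gave 56.5, 37.1 and 39.2 CPM in DMSO and 61.0, 47.1 and 47.2 CPM in S767. Only DMSO replicate 1 reached the S767 range. With the block it rose by 0.24 ± 0.04 (adjusted p = 0.00645).

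Both genes, like CD33, were lower in DMSO within each number. CFD, the gene after ELANE on the chromosome, had a log2 fold change of 0.15 ± 0.04 with the block (adjusted p = 0.0842), so it was not called.

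Late granule genes were largely unread. Of 13, 4 were tested, 1 reached a mean of 1 TPM (HP, haptoglobin, at 3.15 TPM), and LCN2, MMP8, CEACAM8 and OLFM4 were at 0 TPM in all 6 libraries. None of the 4 tested was called, and their median log2 fold change was -0.21. Of 7 inhibitors of granule proteases, 5 were tested and none called. SERPINB1, which inhibits elastase, proteinase 3 and cathepsin G, was the highest at 154 TPM, beside 0.127 TPM for ELANE. It had 232, 229 and 233 CPM in DMSO and 246, 237 and 239 CPM in S767, groups that did not overlap. Without the block its log2 fold change was 0.06 ± 0.03 (adjusted p = 1.00, edgeR).

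Of 21 monocyte and phagocyte genes, 19 were tested, 8 with a log2 fold change above 0 (42.1%, against 49.8% of all genes). None was called with or without the block, and the median was -0.07. A mean of at least 1 TPM was reached by 15 of the 21. The highest was CYBA, a subunit of the phagocyte NADPH oxidase, at 570 TPM. S100A8 and S100A9, abundant in mature monocytes, were at 3.25 and 3.38 TPM, and CD68 counts were far below the RSEM estimate, so that its test is uncertain.

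Of 12 integrin and siglec relatives, 11 were tested and 2 called with the block. ITGB2, which encodes the CD18 chain that pairs with CD11b, stood at 371 TPM beside 4.14 TPM for ITGAM, while ITGAL, the CD11a partner of the same chain, was at 129 TPM. ITGAL gave 371, 382 and 268 CPM in DMSO and 422, 458 and 327 CPM in S767, higher in 3 of 3 pairs in overlapping groups. With the block it rose by 0.24 ± 0.03 on the log2 scale (adjusted p = 0.000473), while ITGAM had -0.17 ± 0.06 (adjusted p = 0.182) in the same fit.

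CLEC12A, a C-type lectin receptor of myeloid cells, gave 66.7, 44.5 and 47.3 CPM in DMSO and 73.4, 49.5 and 52.8 CPM in S767. The groups overlapped, and both libraries of number 1 were highest. It rose by 0.15 ± 0.02 with the block (adjusted p = 0.00747).

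Of 13 progenitor markers, 4 were tested and 2 called with the block, CD38 and CD82. CD38, the surface NAD hydrolase, gave 24.2, 50.6 and 37.2 CPM in DMSO and 26.9, 55.9 and 42.8 CPM in S767. Its lowest libraries were those of number 1 and its highest those of number 2. It rose by 0.17 ± 0.03 (adjusted p = 0.00752).

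CD82, a tetraspanin, gave 12.2, 7.43 and 10.7 CPM in DMSO and 15, 9.48 and 12.2 CPM in S767. S767 was higher in 3 of 3 pairs and the groups overlapped. The rise with the block was 0.27 ± 0.04 (adjusted p = 0.00752). The highest progenitor gene was CD99 at 91.3 TPM, a pseudoautosomal gene that received almost no counted fragments and was not tested. Each of the 6 calls held in 7 of 8 fits with the block and was lost without the pair of replicate 2, where the adjusted p was 0.335 for SRGN, 0.269 for RNASE2, 0.0805 for ITGAL, 0.269 for CLEC12A, 0.230 for CD38 and 0.245 for CD82.

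Between replicate numbers 36 of the 53 genes were called (67.9%, against 28.7% of all genes). Among genes with a mean of at least 1 TPM, a class that holds many but not all of the 53, the share was 40.1%. The median range of the 53 was 0.51 on the log2 scale, beside 0.97 for the 9 marker genes and 0.21 for all genes. The counts were 8 of 10 early granule genes, 3 of 4 late granule genes, 3 of 5 inhibitors, 13 of 19 monocyte genes, 6 of 11 integrin and siglec relatives and 3 of 4 progenitor markers. Of the 53, 34 were highest in number 1 (64.2%, against 36.1% of all genes). SERPINB1, CYBA and ITGB2, by contrast, ranged by 1.03-, 1.02- and 1.04-fold between numbers and were not called.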

How the data were processed

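For each library the authors deposited a STAR table of fragment counts per gene, whole numbers without normalization, and an RSEM table of expected counts and TPM, on GRCh38 per the labels. The submitters' processing notes name STAR 2.7.1a and RSEM 1.2.28. The annotation release is not given in the sources used here. Positions are those of GENCODE 29, where 9 of the 10 identifiers have another version number. Of 60609 identifiers, 60294 were given a symbol.

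Reverse-strand counts were used (the forward strand held 6.44% to 6.58%), without the lines that name no gene (20.3% of fragments). Totals per library ran from 149994700 to 258029564. After TMM normalization and filterByExpr (minimum count 10), treatments were compared in R 4.3.3 by edgeR 4.0.16 (quasi-likelihood fit, p-values adjusted by Benjamini-Hochberg across 20725 genes). Intervals are at the 95% level, and exact permutation tests used log2 CPM (prior count 2). RSEM expected counts were rounded. On a single set of simulated counts, the share of false calls exceeded its nominal limit in the block fit and in the test between replicate numbers. A single set does not fix the rate of false calls.

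Groups and replicate numbers come from the labels. The numbers pair the libraries: deviations from group means correlated at 0.78, 0.87 and 0.75 within numbers over 6191 genes. This comes from the values, not from a stated design. No 2 libraries were repeats (chi-square per gene at least 15.2).

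The text names the 10 markers, the cell type markers, list genes past an unadjusted p of 0.05 without the block or an adjusted p of 0.05 with it, the gene of highest mean TPM per list, and the 2 genes of nearest pattern for the 4 markers of widest range. CFD, PRSS57, TLR2, TLR4, LY96, S100A8, LCN2, MMP8, CEACAM8, OLFM4 and CD68 fall outside this rule and were chosen after their values were seen. CD68, PRG2 and SIGLEC5 had counts far below their RSEM estimates. The markers and lists were chosen with earlier results of these data known.

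Alternatives were DESeq2 1.42.0, limma-voom (limma 3.58.1), RLE factors, unscaled library size, 2 other filters, the replicate block, RSEM expected counts, unstranded counts, log2(TPM + 1), log2(TPM + 0.1) and leaving out each library. The block was also combined with other tools, counts and scalings and with a pair left out, all chosen after seeing the data.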

Additional observations from a re-analysis of the deposited data

How the results depend on the processing

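Without a block, no alternative called a marker or a list gene, and leaving out single libraries put 0 to 1 markers past an unadjusted p of 0.05. The replicate block, which pairs the numbers, called 1 of 9 markers (CD33) and 6 of 53 list genes, and the counts were again 1 and 6 with limma-voom, DESeq2, RSEM expected counts or library size alone beside the block. Markers past an unadjusted p of 0.05 were 4 of 9 with the block (16.8% of all genes), 3 with limma-voom beside it (16.5%), 2 with DESeq2 (10.2%), 2 with RSEM counts (17.6%) and 3 with library size (16.7%). With the block and without replicate 1, 2 or 3, the called markers numbered 3, 0 and 1 and the called list genes 21, 0 and 7 (9.86%, 0.113% and 3.06% of all genes), and 5, 3 and 2 markers passed the unadjusted limit (21.1%, 8.94% and 13.4%). Without replicate 1, CTSG (0.21, adjusted p = 4.46e-06, edgeR) and ITGAM (-0.26, adjusted p = 0.000246) were called beside CD33. The pair left out went the other way for CTSG and showed almost no change for ITGAM.

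Reversed directions belonged to values that did not pass the test. AZU1 had -0.00059 with RSEM counts, -0.027 with these and the block and -0.067 with the block without replicate 1. LYZ had -0.00023 with unstranded counts, and ELANE -0.070 with the block without replicate 2. Leaving out single libraries gave ranges of -0.35 to 0.24 for MPO, -0.11 to 0.66 for PRTN3, -0.29 to 0.26 for AZU1, -0.48 to 0.54 for LYZ, -0.36 to 0.11 for ITGAM, -0.86 to 0.50 for CD34, 0.0066 to 0.89 for ELANE, 0.012 to 0.27 for CTSG and 0.037 to 0.18 for CD33. The cause was not tested. Between replicate numbers, 9 of 9 markers were called with limma-voom and 8 with RSEM counts, where ELANE had an adjusted p of 0.0576.

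Levels in DMSO recomputed from counts per effective length were 0.184 in place of 0.08 TPM for ELANE, 6.17 in place of 3.58 for AZU1, 109.4 in place of 94.0 for CD33 and 0.0422 in place of 0.02 for CD14. ELANE rested on at most 41 and CD14 on at most 15 fragments per library.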
